A study of Sus scrofa with 88 samples.

Results

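OCA2, MC1R, ASIP and DCT are genes of melanin pigmentation, and their RNA was compared here between littermates in pig loin muscle. The 4 genes were taken by their symbols in the annotation of the array and had 7 spots, 1 each for OCA2, MC1R and DCT and 4 for ASIP, out of 178 spots with a symbol and 20736 spots in all. The genes were chosen by their measured spread and by the variation shared among ASIP spots, both already known from these arrays, so spread and the correlations among ASIP spots are given below as description without a test. The animals were 176 F2 pigs of a Duroc x Pietrain cross, a resource population in which breed alleles segregate, with 4 pigs from each of 44 litters. Within a litter, 1 pair of males and 1 pair of females were each hybridized to a 2-color array of long oligonucleotides, and each pair consisted of a pig that was high and a pig that was low for the trait on which its litter had been selected. That trait was loin muscle area (LMA) for 24 male and 24 female pairs and backfat depth (BF) for 20 male and 20 female pairs. All groups share the cross, the tissue and the array, and the labels give no treatment. According to the methods, the animals were finishing pigs at slaughter age and market weight, with no separate ages for the groups.

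Melanin is made in melanosomes, the pigment organelles of melanocytes. MC1R is the melanocyte receptor for melanocortins such as alpha-MSH, which is cut from the precursor encoded by POMC. The receptor signals through the stimulatory G protein whose alpha subunit is encoded by GNAS, and ASIP, the agouti signaling protein, is its secreted antagonist. OCA2 encodes a melanosomal membrane protein needed for normal pigment synthesis in mice and humans, and DCT encodes dopachrome tautomerase, an enzyme of the eumelanin pathway. Variants of MC1R underlie much of the variation of coat color among pig breeds, and Duroc pigs are red while Pietrain pigs are spotted. Melanocytes are not a main cell type of skeletal muscle, and ASIP is also expressed in adipose tissue of humans and cattle.

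Each deposited value is a log2 ratio of the littermates on an array, so the data hold differences within pairs and not levels in single pigs. The levels of the 4 genes therefore cannot be ordered, and the tissue label cannot be checked against levels of muscle or pigment cell markers. In a bulk sample, a ratio between littermates cannot tell fewer cells of a type from less RNA per cell. Whether the high or the low pig is the numerator is not stated, and a positive ratio means only more RNA in the numerator pig, with the same order of both pigs on every array. The 20736 ratios of an array had an SD of 0.133 to 0.660 with a median of 0.222. An SD over 0.4 was seen on 4 arrays, all of LMA litters, namely the male pair of litter 56 and the female pairs of litters 12, 32 and 54. Of 27 other pigment cell and melanocortin genes looked for, only POMC and GNAS had a spot with a symbol, so TYR, TYRP1, MITF, PMEL and MLANA could not be followed here. The labels give no scan or slide batch.

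OCA2 differed more between littermates than the other 3 genes. In male pairs of LMA litters its log2 ratio had a lowest value of -2.90, a median of 0.16 and a highest value of 2.80. In female pairs of LMA litters it lay between -0.54 and 1.59 with a median of -0.06. Male pairs of BF litters had ratios of -1.16 to 1.67 with a median of 0.16, and female pairs of BF litters had ratios of -2.01 to 1.34 with a median of -0.01. The 4 groups overlapped, all had a median close to 0, and both signs were seen in each. A littermate difference beyond 2-fold, a log2 ratio over 1 in size, was seen on 7 of 24 male and 1 of 24 female arrays of LMA litters and on 2 of 20 male and 3 of 20 female arrays of BF litters. The largest of these differences was 7.45-fold, whereas the median size of the OCA2 ratio over all 88 arrays was 0.439, or 1.36-fold. A ratio under 0.25 in size was seen on 30 arrays, so the wide spread of OCA2 came with many pairs that hardly differed.

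**Figure D1:**
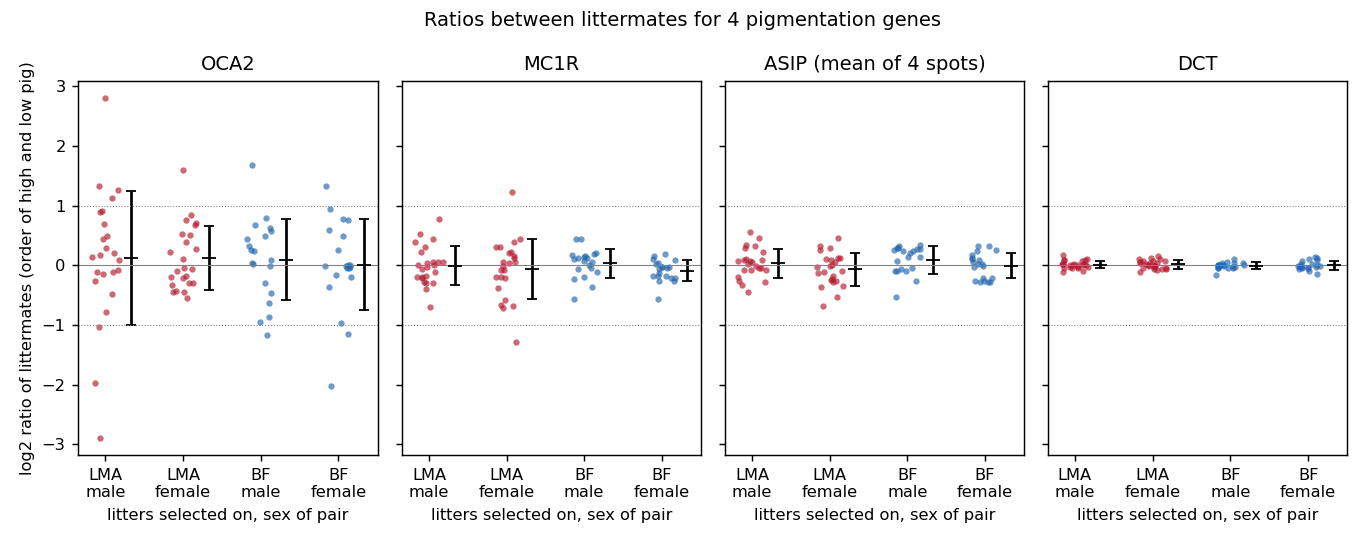
Log2 ratio of littermates (vertical axis, in the fixed order of high and low pig) for OCA2, MC1R, the mean of the 4 ASIP spots and DCT, by selection trait (LMA in red, BF in blue) and sex of the pair. Each point is 1 array, the black bar is the mean with its SD (24 arrays per LMA group and 20 per BF group), and dotted lines mark 2-fold; OCA2 crossed them on 13 arrays, MC1R on 2, and ASIP and DCT on 0 arrays.

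The 13 arrays on which OCA2 went beyond 2-fold came from 12 litters. Litter 78 was the 1 litter in which both pairs did so, with 2.80 in the male pair and 1.59 in the female pair. In litter 56 the male pair, which was on the widest array, had a ratio of -2.90, while the female pair had 0.53. Litter 12 had -1.97 in its male pair and -0.05 in its female pair, and litter 122 had 0.44 in its male pair and -2.01 in its female pair. A large OCA2 difference in pairs of 1 sex was thus mostly not matched by one in pairs of the other sex. Of the 13 arrays, the 1 of litter 56 was among the 4 wide arrays. The array SD of the other 12 was between 0.194 and 0.308.

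MC1R, the melanocortin receptor, came next in spread. Its ratio lay between -0.70 and 0.78 in male pairs and between -1.29 and 1.23 in female pairs of LMA litters, with medians of -0.02 and 0.02. In BF litters it lay between -0.57 and 0.44 in male pairs and between -0.57 and 0.18 in female pairs, with medians of 0.09 and -0.05. It went beyond 2-fold on 2 of 88 arrays, the female pairs of litters 32 (-1.29) and 12 (1.23), both on wide arrays. A ratio under 0.25 in size was seen in 14 of 24 male and 13 of 24 female pairs of LMA litters, against 16 of 20 male and 17 of 20 female pairs of BF litters.

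ASIP, the antagonist of MC1R, had 4 spots for different transcript records. Averaged over these spots, its ratio ran from -0.44 to 0.56 in male and from -0.68 to 0.46 in female pairs of LMA litters, with medians of 0.04 and -0.06. In BF litters it ran from -0.53 to 0.34 in male pairs, with a median of 0.17, and from -0.29 to 0.33 in female pairs, with a median of 0.02. No spot of ASIP went beyond 2-fold on any array, although spot 2548 came close to it, at -0.998 in a female pair of an LMA litter.

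DCT, the melanin enzyme, hardly differed between littermates. Its ratio ran from -0.11 to 0.18 in male and from -0.11 to 0.15 in female pairs of LMA litters, and from -0.16 to 0.11 in male and from -0.15 to 0.15 in female pairs of BF litters. All 88 arrays were under 0.25 in size, and the largest difference was 1.13-fold. A ratio near 0 carries no information on the level of DCT, and intensities were not analysed here.

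Set against all spots, the 4 genes covered nearly the whole range of spread. The spread was taken as the SD of the ratios left after dye, LMA and BF were fitted, which had a median of 0.137 over all spots. OCA2 had an SD of 0.807, above 99.3% of spots, and MC1R one of 0.334, above 87.6%. The 4 ASIP spots had SDs of 0.186 to 0.204, above 63.8% to 68.2% of spots, and DCT had one of 0.0604, above 5.85%. Among the 178 spots with a symbol, OCA2 ranked 2, after LMCD1, a LIM domain protein (SD 0.999), and before ITGB1, an integrin subunit (0.630), INHA, an inhibin subunit (0.554), and RPN2, a subunit of the oligosaccharyltransferase (0.550). MC1R ranked 25, the ASIP spots 58 to 74 and DCT 169. The number of arrays beyond 2-fold was 0 for 76.6% of all spots. The spots of S100A11, LMCD1 and OCA2 carry consecutive numbers (11187, 11188 and 11189) and ranked 6, 1 and 2. OCA2 and LMCD1 had an r of 0.041 over the 88 arrays. The next spot on the other side, 11190 (UTS2), had an SD of 0.105, above 37.4% of spots, and an r of -0.030 with OCA2. A part of spot position in the spread was not tested.

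No member passed the test of a difference between high and low pigs for either trait. In a linear model with terms for dye, LMA and BF, fitted with limma on all spots, 0 of 7 member spots passed an adjusted p of 0.05 for LMA and 0 of 7 for BF, where 0% of all 20736 spots passed for LMA and 0% for BF. At an unadjusted p under 0.05, 871 spots were counted for LMA and 772 for BF, with 0 of the members among them. The coefficient of OCA2 was 0.13 ± 0.12 (standard error, 95% interval -0.10 to 0.36) for LMA and 0.04 ± 0.13 (-0.21 to 0.30) for BF. Without the 4 wide arrays the LMA coefficient was 0.20, and with array weights the BF coefficient was 0.14; neither passed. Intervals of that width leave room for an average OCA2 difference of either sign. MC1R had coefficients of -0.03 ± 0.05 for LMA and -0.04 ± 0.05 for BF. The coefficients of the ASIP spots were between -0.03 and -0.01 for LMA and between 0.01 and 0.03 for BF, with standard errors of 0.03. DCT had the smallest unadjusted p of the members, 0.0846 in limma for LMA, with a coefficient of 0.02 ± 0.01 and an adjusted p of 1.00, and its BF coefficient was 0.00 with an interval of -0.02 to 0.02.

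**Figure D2:**
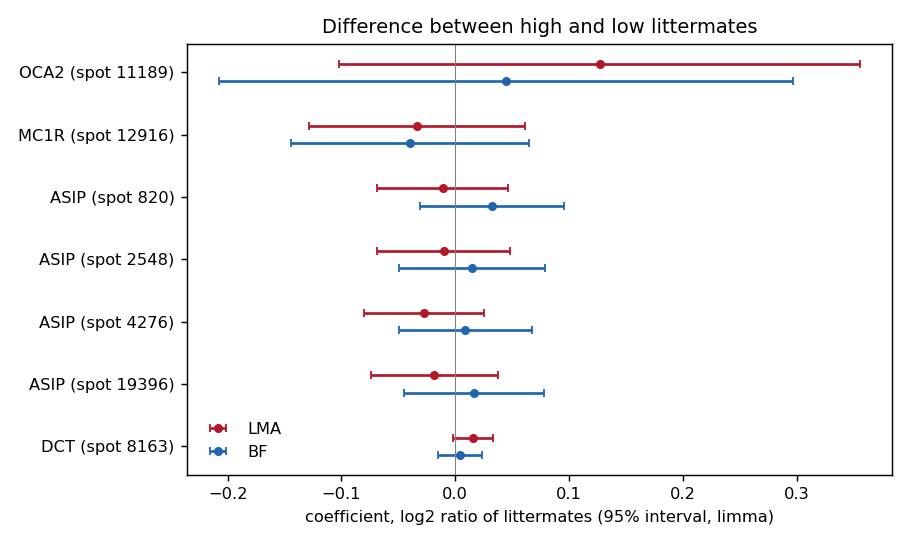
Coefficients of the 7 member spots for LMA (red) and BF (blue) on the horizontal axis, as log2 ratios of littermates in the fixed order of high and low pig, with 95% intervals from limma on all 88 arrays. All intervals include 0, and those of OCA2 are the widest of the members and those of DCT the narrowest.

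POMC and GNAS, which encode the precursor of the melanocortins and the G protein subunit behind the receptor, did not pass either. POMC had a coefficient of -0.03 ± 0.03 for LMA and of 0.01 ± 0.03 for BF. GNAS had a coefficient of 0.08 ± 0.04 (unadjusted limma p = 0.0681) for LMA and of 0.06 ± 0.05 for BF, and it went beyond 2-fold on 1 array.

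Male and female pairs were compared in their trait coefficients as a contrast of sex-specific terms. None of the 7 member spots passed, for LMA or for BF, where 0% of all spots passed in either; 1508 spots had an unadjusted p under 0.05 for LMA and 887 for BF, and ASIP spot 19396 was the 1 member spot among those of LMA. The 4 ASIP spots had male minus female differences of 0.09 to 0.11 for LMA, with unadjusted limma p-values of 0.0405 to 0.0928 and adjusted p-values of 0.683 to 0.711. For BF these differences were 0.05 to 0.11 with adjusted p-values of 1.00. OCA2 had a male minus female difference of -0.00 (interval -0.47 to 0.46) for LMA and of 0.08 (-0.43 to 0.59) for BF.

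The members were not alike in how far their signals followed the dye. With the ratios put in dye order, 6 of 7 member spots passed limma's test of the dye term, where 61.1% of all spots passed, and OCA2 was the spot that did not (coefficient -0.05 ± 0.09, adjusted p = 0.635). The dye coefficients of the ASIP spots were -0.19, -0.18, -0.15 and -0.19 for spots 820, 2548, 4276 and 19396, with adjusted p-values of 3.37e-10 or less, and 15 or 16 of 88 arrays had a ratio above 0. MC1R had a dye coefficient of -0.09 (adjusted p = 0.0255) and was above 0 on 37 arrays, but it did not pass with arrays scaled to the same median absolute deviation (-0.06, adjusted p = 0.0765). DCT had one of 0.03 (adjusted p = 2.97e-04) and was above 0 on 57 arrays, and OCA2 was above 0 on 44. The sign of a dye coefficient has no known direction either, since all of them turn together with the order of high and low.

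The size of the littermate difference, regardless of sign, was compared between traits and between sexes on the residuals of the model, with litters as the units. MC1R had a mean size of 0.297 in LMA litters and of 0.166 in BF litters. The difference of 0.131 passed a two-sided permutation test of litters between traits (p = 0.00987, adjusted p = 0.0395 over 8 comparisons), but it was 0.0757 (adjusted p = 0.226) without the litters of the 4 wide arrays. ASIP had a mean size of 0.162 in LMA litters and of 0.110 in BF litters, a difference of 0.0527 (permutation p = 0.00795, adjusted p = 0.0395). Without the litters of the wide arrays it was 0.0429 (adjusted p = 0.226), and on ratios as deposited 0.00892 (adjusted p = 0.926). The mean size of OCA2 was 0.599 in LMA litters and 0.525 in BF litters, and that of DCT was 0.0494 and 0.0454 (adjusted permutation p = 0.581 for each). Without the wide arrays, none of the 4 genes passed the comparison of traits. With all arrays scaled to the same median absolute deviation, MC1R (0.0977) and ASIP (0.0442) passed it (adjusted permutation p = 0.0484 each).

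Between sexes, the mean size of OCA2 was 0.660 in male and 0.471 in female pairs. This came from LMA litters, with 0.770 in male and 0.429 in female pairs, the male pair being the larger in 16 of 24 litters, whereas BF litters had 0.528 in male and 0.521 in female pairs, with 13 of 20 litters larger in the male pair. The wider OCA2 ratios of males in LMA litters were known beforehand, so these values are a description. Without the litters of the 4 wide arrays, the mean size of OCA2 over both traits was 0.592 in male and 0.471 in female pairs. MC1R had mean sizes of 0.224 in male and 0.252 in female pairs, ASIP of 0.132 in male and 0.144 in female pairs, and DCT of 0.0411 in male and 0.0540 in female pairs. By swapping the sexes within litters in a two-sided permutation test, the adjusted p was 0.581 for MC1R, 0.581 for ASIP and 0.232 for DCT.

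MC1R and ASIP moved together across arrays, and the other pairs of genes did not pass the test. On residuals in dye order, the MC1R ratio and the mean ASIP ratio had a Pearson r of 0.638 and a Spearman rho of 0.532 over 88 arrays. Both had a two-sided p of 1e-05, the smallest that 100000 permutations of whole litters can give, and an adjusted p of 6e-05 over 6 gene pairs. The correlation was 0.682 in LMA and 0.516 in BF litters, 0.524 over male and 0.730 over female arrays, 0.549 without the 4 wide arrays and 0.570 without the 2 arrays farthest from the median. With each ASIP spot taken singly, r with MC1R was 0.476 to 0.608. Such values were common on these arrays. Of 20736 spots, 2085 had an r over 0.5 in size with the ASIP mean and 1869 with MC1R. The permutation test was against an r of 0 and not against this background, so it does not set the MC1R and ASIP pair apart from other spots. A positive r means that where more MC1R signal was found in 1 dye, more ASIP signal was found in the same dye, beyond the average effect of dye and trait. The r of OCA2 was 0.002 with MC1R (rho 0.212, adjusted permutation p = 0.146), 0.041 with ASIP and -0.122 with DCT, and DCT had r of 0.169 with MC1R and 0.146 with ASIP. The adjusted permutation p-values of r for these pairs were 0.302 to 0.982. Without the 4 wide arrays, OCA2 and MC1R had an r of 0.223 in a fit made anew. They did not pass in a permutation of the litters with no wide array, which kept the residuals of the full fit (adjusted p = 0.0717).

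Arrays differed in how strongly their ratios carried the common dye pattern. The dye strength of an array, taken after the data were seen as the slope of its ratios on the dye coefficients of all other spots, had a median of 0.999 and ran from 0.443 to 1.63. ASIP had an r of -0.755 with it and MC1R one of -0.604 (permutation p = 1e-05 each, the smallest possible; adjusted p = 2e-05 over 4 genes). Both genes had negative dye coefficients, and a spot with a negative one is expected to fall as dye strength rises. These p-values therefore do not single out ASIP and MC1R among the 61.1% of all spots that passed the dye test. DCT had a positive dye coefficient (0.03), with which a rise is expected, but its r was -0.268 (adjusted permutation p = 0.0123). OCA2 had an r of 0.061 (adjusted permutation p = 0.557). With dye strength as a covariate, the r of MC1R and ASIP was 0.349 (permutation p = 0.00052), so less than the 0.638 above but still above 0. OCA2 was the gene whose r with dye strength did not pass, and that r was 0.223 in LMA arrays and -0.175 in BF arrays.

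**Figure D3:**
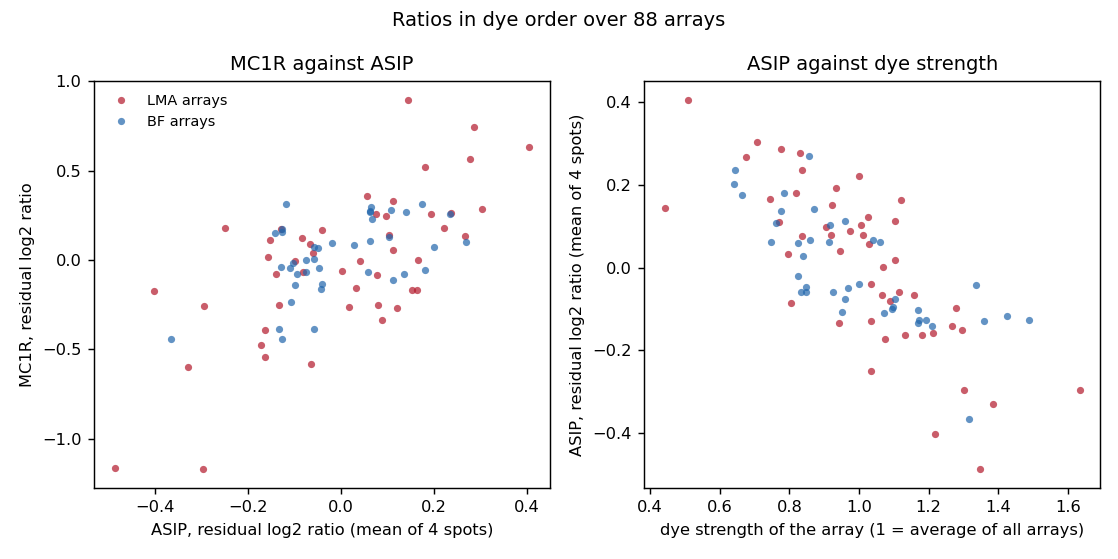
Left, MC1R against the mean of 4 ASIP spots, both as residual log2 ratios in dye order; right, ASIP against the dye strength of the array, where 1 is the average. Each point is 1 of 88 arrays (LMA in red, BF in blue); MC1R rises with ASIP (r = 0.638) and ASIP falls with dye strength (r = -0.755).

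The 4 ASIP spots correlated with one another at r of 0.638 to 0.734 over the 88 arrays, given as description since this was known when the genes were taken. Spots of other genes reached similar or higher values with the ASIP mean. DMRT1, a transcription factor of testis development (r = 0.851), PRL, the hormone prolactin (0.819), and CYP8B1, an enzyme of bile acid synthesis (0.789), were the named spots most like the ASIP mean. The spots without a symbol most like it were 19886, 2036 and 18638, at 0.857, 0.846 and 0.840. In all, 2085 spots had an r over 0.5 in size with ASIP. For MC1R the named spots were ITGA2B, a platelet integrin subunit (0.676), OPN1SW, the short-wave cone opsin (0.649), and DSG1, a desmosomal cadherin (0.640). The spots without a symbol most like MC1R were 17964 (0.803), 19672 (0.778) and 12765 (0.771), and 1869 spots were over 0.5 in size. OPN1SW has the spot number next to MC1R, and DMRT1 the number next to ASIP spot 820 (r = 0.801). On the other side, PCSK2 had an r of 0.160 with MC1R and SCGB1D1 one of 0.186 with ASIP spot 820. The neighbors of the other 3 ASIP spots had r of -0.000248 (CYP7A1) to 0.661 (HTR1F), against a median size of r of 0.226 for consecutive spots that both have a symbol and of 0.158 for all consecutive spots. The markers of other cell types had correlations of both signs with ASIP. Adipocyte genes had r of 0.543 (RETN), 0.483 (ADIG) and -0.239 (PLIN1), and blood and leukocyte genes had r of 0.414 (HBE1), -0.358 (CD4) and -0.076 (TYROBP). Of the muscle genes, the regulator MYOD1 had r of -0.513 and the slow myosin MYH7 one of -0.005. Of the 8 adipocyte genes listed 3 had a spot, of 7 blood and leukocyte genes 3, of 11 muscle fiber genes 2 and of 3 skin genes 0, and their part in the ASIP ratios was not tested. POMC had r of 0.438 with ASIP and 0.303 with MC1R, and GNAS had r of -0.272 with ASIP and -0.477 with MC1R.

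OCA2 had a much smaller set of like spots. Only 11 spots had an r over 0.5 in size with it, and the median r over all other spots was 0.0988 in size, against 0.231 for MC1R and 0.222 for ASIP. The named spots most like OCA2 were NPG4, the antimicrobial peptide protegrin 4 (r = 0.453, rho = 0.212), CYSLTR2, a leukotriene receptor (0.324), and ST3GAL4, a sialyltransferase (0.321). A spot without a symbol, 11747, stood apart at r = 0.897 and rho = 0.895, ahead of spots 11785 (0.567) and 17314 (0.549). The study lists another oligonucleotide for OCA2 besides the one named here. For each, the study reports linkage to the chromosome that carries the gene, and linkage was not tested here. Whether spot 11747 is that other oligonucleotide could not be settled. Its ratio ran from -2.20 to 2.28, its residual SD was 0.568, above 97.4% of spots, and its residual changed by 0.631 per unit of OCA2. Its ratio had the sign of the OCA2 ratio on 75 of 88 arrays and on 13 of the 13 arrays where OCA2 went beyond 2-fold, and was itself beyond 2-fold on 4 of them. These correlations share arrays and are given with no test.

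**Figure D4:**
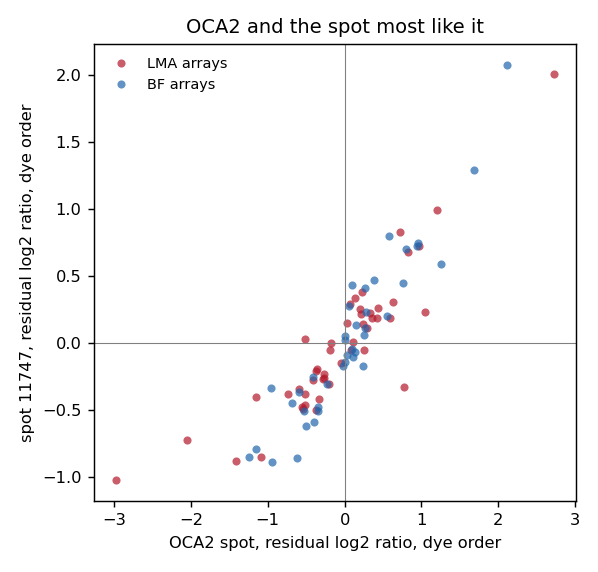
Residual log2 ratio in dye order of spot 11747 (vertical axis, no gene symbol) against that of the OCA2 spot (horizontal axis) on 88 arrays, LMA in red and BF in blue. Spot 11747 rises with OCA2 (r = 0.897) in litters of both traits, with single arrays away from the trend, such as the male pair of litter 56 (OCA2 -2.97, spot 11747 -1.02) and the female pair of litter 32 (0.77 and -0.33).

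DCT, at the other end of the spread, had 0 spots with an r over 0.5 in size. The named spots most like it were HAPLN1, a link protein of cartilage matrix (0.355), GOT1, the cytosolic aspartate aminotransferase (-0.333), and PLCZ1, a sperm phospholipase (0.330), and the spots without a symbol were 2471 (0.450), 14590 (0.424) and 5370 (-0.410).

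Resemblance between the male and the female pair of a litter was examined for each gene, with the sign of the residual in dye order and with its size. A level shared by a whole litter cancels in a ratio of littermates. ASIP was the gene for which the male and the female pair resembled each other when read in dye order. Its r over 44 litters was 0.499 and its rho 0.573 (two-sided permutation of male arrays among litters of a trait, p = 0.00097, adjusted p = 0.00776 over 8 relations), and the male and the female array lay on the same side of 0 in 34 of 44 litters. The r was 0.513 in LMA and 0.490 in BF litters, neither of which passed alone (adjusted permutation p = 0.0896 and 0.212), and it was 0.522 without the 2 litters farthest from the median and 0.620 without the litters of the 4 wide arrays. Taken singly, the 4 ASIP spots had r of 0.365 to 0.507, with both arrays on the same side in 26 to 29 litters. In the deposited order of high and low the r was -0.338 (adjusted permutation p = 0.102), with the same sign in both pairs in 18 of 44 litters. The high pigs of the male and female pairs carried different dyes in 35 of the 44 litters. In dye order the r of ASIP was 0.499 in those 35 litters and 0.466 in the litters with the same dye. The dye strength itself had an r of 0.491 between the arrays of a litter (permutation p = 0.00085), and with it as a covariate the r of ASIP was 0.271 (permutation p = 0.0875, adjusted p = 0.700).

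In dye order, the male and female pairs showed no detectable resemblance for the other genes. OCA2 had an r of -0.056 with sign and 0.017 for size, and its arrays lay on the same side of 0 in 21 of 44 litters. MC1R had -0.045 with sign and 0.145 for size, DCT had -0.165 and -0.097, and the size of ASIP had -0.017. The adjusted permutation p was 0.918 for each of these 7 relations.

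**Figure D5:**
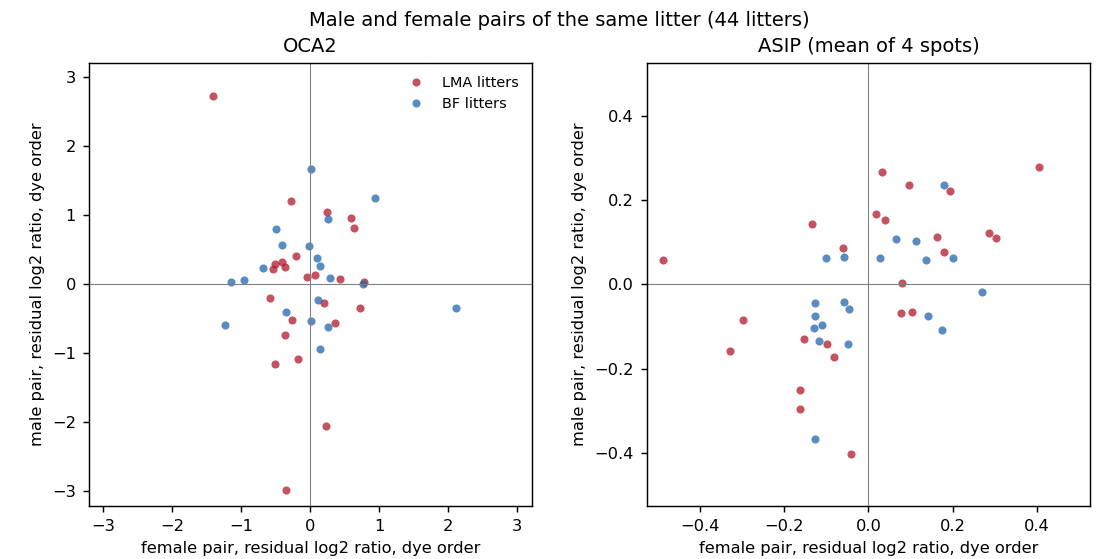
Residual log2 ratio in dye order of the male pair (vertical axis) against that of the female pair (horizontal axis) of the same litter, for OCA2 (left) and the mean of 4 ASIP spots (right). Each point is 1 of 44 litters (LMA in red, BF in blue); ASIP has 34 litters with both pairs on the same side of 0 (r = 0.499) and OCA2 has 21 (r = -0.056).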

How the data were processed

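Per array and spot, a log2 ratio was deposited by the authors, computed from median spot intensities read with GenePix Pro without background correction and normalized by print-tip lowess and scaling. They were used as deposited, all arrays had a value at all 20736 spots, and precision is limited by how many arrays there were. Spots were named through the platform annotation, and control spots were kept. Members and gene lists were chosen with earlier results of these data known.

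Ratios were read as high against low pig in 1 fixed order, because mean ratios in LMA and BF litters correlated across spots at 0.938 in dye order and at -0.0748 as deposited. On the 47 arrays with the high pig in Cy3 they were multiplied by -1 to reach dye order. limma 3.58.1 (lmFit, eBayes; R 4.3.3) fitted dye, LMA and BF terms at every spot, and a spot was called at a Benjamini-Hochberg adjusted p under 0.05 across the whole array. Correlations and sizes were tested in Python with 100000 permutations of whole litters, or 20000 in subsets of arrays. Litter-level p-values measure the spread between litters of 1 cross.

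Named spots are the members, for each gene the 3 spots with and the 3 without a symbol that correlate most with it, and pigment genes with a spot; others are neighbors in spot number, marker genes or spots ranked near OCA2, chosen after their values were seen. The fit and the permutations were tested on simulated data. Arrays of 1 litter had a median residual correlation of 0.118, over 0.1 in 24 of 44 litters. Alternatives were another scaling, arrays or litters left out, array weights, litter as a block, no dye term, filters, rank correlation and the dye order as deposited. The dye strength covariate and size comparisons within a trait were added after the data were seen.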

Additional observations from a re-analysis of the deposited data

Results flagged for a closer look

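The size of the littermate ratio differed between litters of the 2 selection traits for 2 genes. For MC1R the mean size was higher by 0.131 in LMA than in BF litters, and for ASIP, as the mean of its 4 spots, by 0.0527. Each passed a permutation test of litters between traits at an adjusted p of 0.0395. All 4 arrays with an SD over 0.4 are of LMA litters, and without their litters the differences were 0.0757 and 0.0429 with an adjusted permutation p of 0.226 each. The median array SD was 0.222 in male and 0.223 in female pairs of LMA litters, against 0.225 in male and 0.217 in female pairs of BF litters. With arrays scaled to the same median absolute deviation the differences were 0.0977 for MC1R and 0.0442 for ASIP, and both passed (adjusted permutation p = 0.0484 each). The part of array quality in these differences was not tested beyond these values.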

How the results depend on the processing

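Counts of member spots called for LMA and BF stayed at 0 of 7 and that for dye at 5 or 6 in every alternative but 1, including litter as a random replicate block (0, 0 and 6). The dye call lost after scaling was that of MC1R, and DCT was left out by the filter on spread. With the deposited ratios read as dye order, 5 spots were called for LMA, 4 for BF and 0 for dye, where 10503, 9411 and 0 of all spots were called. The male minus female counts were 0 of 7 in all alternatives, also with litter as a fixed replicate block. In the dye order reading the LMA coefficient of OCA2 was -0.11 and the BF coefficients of ASIP spots 820, 2548, 4276 and 19396 were -0.19, -0.20, -0.16 and -0.20. The LMA coefficient of spot 820 was 0.0044 with array weights, that of spot 2548 was 0.0076 without the 4 wide arrays and 0.011 with array weights, and the BF coefficient of DCT was -1.59e-05 without a dye term.

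The correlation of MC1R and ASIP passed in every alternative. Other pairs, none of which passed, turned sign as OCA2 and MC1R (-0.074 in LMA litters, -0.043 in male arrays), OCA2 and DCT (0.046 in BF litters) and ASIP and DCT (-0.217 in the deposited order, -0.0885 with dye strength). The within-litter r of ASIP did not pass among LMA litters (0.513) or BF litters alone (0.490), with fewer litters each, or with dye strength (0.271), and was -0.338 in the deposited order. The cause was not tested. Relations that never passed turned sign as follows. With sign, OCA2 had 0.0035 by Spearman, 0.052 in BF litters, 0.059 in the deposited order and 0.072 without the 2 farthest. MC1R had 0.018, 0.113, 0.113 and 0.025 there, 0.218 without the wide arrays and 0.024 after scaling, and DCT had 0.192 in BF litters and 0.013 in the deposited order. For size, OCA2 had -0.148 by Spearman, -0.256 in BF litters, -0.027 after scaling and -0.205 without the 2 farthest. ASIP had 0.018, 0.036, 0.097 and 0.087 there, 0.079 without the wide arrays, 0.410 in the deposited order and 0.120 with dye strength, and DCT had 0.016 in LMA litters, 0.023 without the 2 farthest and 0.030 with dye strength.

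With arrays scaled to the same median absolute deviation, the size differences of MC1R (0.0977) and ASIP (0.0442) between LMA and BF litters passed. They did not pass without the wide arrays (MC1R 0.0757, ASIP 0.0429), as medians (0.101 and 0.0437) or on ratios as deposited (0.135 and 0.00892). The cause was not tested. The size difference of OCA2 between traits was -0.048 as medians and that of DCT -0.00063 without the wide arrays. Between sexes, MC1R had 0.0146 without the wide arrays, 0.00106 as medians and 0.0516 in BF litters, and ASIP 0.00696 without the wide arrays. The percentile of spread of OCA2 was 99.1 to 99.5 throughout, while ASIP spots ranged from 60.3 to 80.2. Signal over background was not analysed here and it limits what a ratio near 0 shows.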
